A study of Mus musculus with 20 samples.

Results

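The genes described here are 4 that mark retinal ganglion cells, Sncg, Nefh, Isl2 and Slc17a6. Their probes were found by the gene symbol in the platform annotation, which gave 5 of the 10500 probes of the array and 4 of its 9230 named genes, because Slc17a6 had 2 probes. All 5 probes passed the filter on missing values. Total RNA of adult C57/B6 mouse retina was compared with total RNA of Swiss-Webster mouse cortex at postnatal day 1 on CodeLink arrays of GE Healthcare (Amersham), a 1-colour platform for biotin-labelled RNA. Each tissue was a single pool, hybridised 5 times at the first site and 5 more times at site 2, which gave 4 groups: first-site retina, first-site cortex, site 2 retina and site 2 cortex. Arrays within a group repeat the measurement of 1 pool, so p-values cover the spread between arrays and not between animals. Retina and cortex differed in tissue, strain and age at once, and these cannot be told apart. The stated purpose of the design was to assess variation within the platform and, through site 2, between sites.

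Retinal ganglion cells are the output neurons of the eye, and their axons form the optic nerve and carry signals to the thalamus and midbrain. They release glutamate and have long, thick axons filled with neurofilaments, which many other retinal neurons lack. Sncg encodes gamma-synuclein, a small cytosolic protein of neurons that is widely used to label ganglion cells. Nefh encodes the heavy neurofilament subunit, which is abundant in large mature axons. Isl2 encodes a LIM homeodomain transcription factor, found in mouse in a subset of ganglion cells whose axons cross the midline. Slc17a6 encodes VGLUT2, which loads glutamate into synaptic vesicles in ganglion cells and also in thalamic neurons and some neurons of the developing forebrain. In RNA of a whole tissue, fewer cells of a type and less RNA per cell cannot be told apart.

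The start site windows of 3 of the 4 genes, Sncg, Isl2 and Slc17a6, are shown. They come from RefSeq, build GRCm38.p6 of strain C57BL/6J, and hold 250 bases before and 50 bases after a transcription start, 5′ to 3′ along the gene. The Sncg window is chr14:34374620-34374919 on the minus strand. The Isl2 window is chr9:55540899-55541198 on the plus strand, and the Slc17a6 windows at 2 start sites are chr7:51621580-51621879 and chr7:51624387-51624686, also on the plus strand. Nefh had no window in the set used here and is named only. Capitals mark matches, on either strand, to any of 6 short motifs.
Sncg: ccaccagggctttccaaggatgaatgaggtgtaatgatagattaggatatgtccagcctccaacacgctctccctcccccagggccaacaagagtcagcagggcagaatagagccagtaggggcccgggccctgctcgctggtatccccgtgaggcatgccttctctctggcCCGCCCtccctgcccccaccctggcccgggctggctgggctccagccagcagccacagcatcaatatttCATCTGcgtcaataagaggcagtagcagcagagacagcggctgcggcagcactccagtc
Isl2: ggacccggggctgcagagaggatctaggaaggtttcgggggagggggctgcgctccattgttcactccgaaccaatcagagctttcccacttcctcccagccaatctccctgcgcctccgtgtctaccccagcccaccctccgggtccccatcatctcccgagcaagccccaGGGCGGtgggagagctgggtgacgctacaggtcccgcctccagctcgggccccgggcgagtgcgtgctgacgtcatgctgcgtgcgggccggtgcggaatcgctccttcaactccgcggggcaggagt
Slc17a6, upstream start: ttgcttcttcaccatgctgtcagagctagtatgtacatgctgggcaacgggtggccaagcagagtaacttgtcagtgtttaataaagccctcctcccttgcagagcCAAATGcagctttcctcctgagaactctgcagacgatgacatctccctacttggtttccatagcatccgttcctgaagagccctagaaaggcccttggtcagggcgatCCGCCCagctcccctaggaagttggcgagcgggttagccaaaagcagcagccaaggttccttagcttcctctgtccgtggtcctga
Slc17a6, downstream start: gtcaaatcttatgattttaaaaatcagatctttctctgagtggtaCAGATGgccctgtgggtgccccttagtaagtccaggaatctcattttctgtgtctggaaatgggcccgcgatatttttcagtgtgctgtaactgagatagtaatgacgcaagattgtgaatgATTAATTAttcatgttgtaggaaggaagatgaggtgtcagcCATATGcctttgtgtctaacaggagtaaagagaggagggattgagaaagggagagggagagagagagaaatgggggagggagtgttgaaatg
The motifs searched were the E-box CANNTG, the POU4 core ATTAAT, the homeodomain core TAATTA, the CRX-type core GGATTA, the GC box GGGCGG and the TATA box TATAAA. Bases of a window were 61.3% G or C in Sncg, 67.3% in Isl2, and 53.7% and 43% in the upstream and downstream Slc17a6 windows, against a median of 52.7% over 32851 windows. A GC box was found in the Sncg, Isl2 and upstream Slc17a6 windows, and 35.7% of all windows held one. It lay at position -78 from the start site in both Sncg and Isl2. An E-box stood at -9 in Sncg and at -144 in the upstream Slc17a6 window, while the downstream Slc17a6 window held 2 and 72.3% of all windows held one. The POU4 and homeodomain cores, present in 4.75% and 5.29% of all windows, were found only in the downstream Slc17a6 window of these 4, where they overlap as ATTAATTA. The TATA box and the CRX-type core, in 13.6% and 7.06% of all windows, were in none of the 4. These are letter matches in short windows and not mapped binding sites.

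Intensities in the deposited table are linear and have no unit, and 1 is about the median probe, since array medians ran from 0.927 to 0.963. Blank values numbered 152 to 217 on an array of site 2, against 22 to 39 on a first-site array. Cortex replicate 5 of site 2 stood apart from its group. Its lowest intensity was -1.29, its correlation with the mean of the other 4 arrays over all tested probes was 0.925 against 0.979 to 0.992 on the other 19 arrays, and its median distance from them was 0.392 log2 against at most 0.184. It also gave the lowest reading of its group for 4 of the 5 probes described here. Results at site 2 that rest on it are therefore given without it as well. Defining markers were set against the tissue labels. The rod genes Sag (log2 difference 6.20 for the first site, 9.50 for site 2) and Gnat1 (5.34 and 10.17) were higher in retina, and the cortical factor Neurod6 was lower (-6.15 and -6.27). First-site cortex nevertheless carried readings of these 2 rod genes that varied by array. Gnat1 read 1.80, 5.24, 4.56, 3.44 and 0.905 and Sag read 0.462 to 2.37 there, whereas in site 2 cortex Gnat1 read 0.0954 to 0.203 and Sag 0.178 to 0.239. The rod gene Pde6a was even in first-site cortex, at 1.55 to 1.72. Replicates 2 and 3 were the highest for Sag and Gnat1, and also for the cone genes Opn1mw and Gnat2. Without those 2 arrays the first-site differences were 5.64 for Sncg, 3.58 for Nefh, 3.07 for Isl2, and -0.30 and -0.04 for the Slc17a6 probes to AK013772 and AF324864, with the same calls. Called means an adjusted p under 0.05 in limma together with a difference of at least 2-fold. Of the 10339 tested probes, 24.9% met this for the tissues at the first site and 24.6% at site 2.

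Sncg, Nefh and Isl2 were higher in retina than in cortex at both sites, and neither probe of Slc17a6 was called at either site. The count of probes called higher was therefore 3 of 5 at each site, beside 11.9% of all tested probes at the first site and 11.1% at site 2. Sncg showed the widest difference, 46.5- and 47.5-fold, followed by Nefh and Isl2. The 3 genes had every retina array above every cortex array at the same site. At the first site 26.2% of all tested probes were apart in this way and at site 2 24.0%. None of the 5 probes was called higher in cortex, beside 13.0% and 13.5% of all tested probes.

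**Figure D1:**
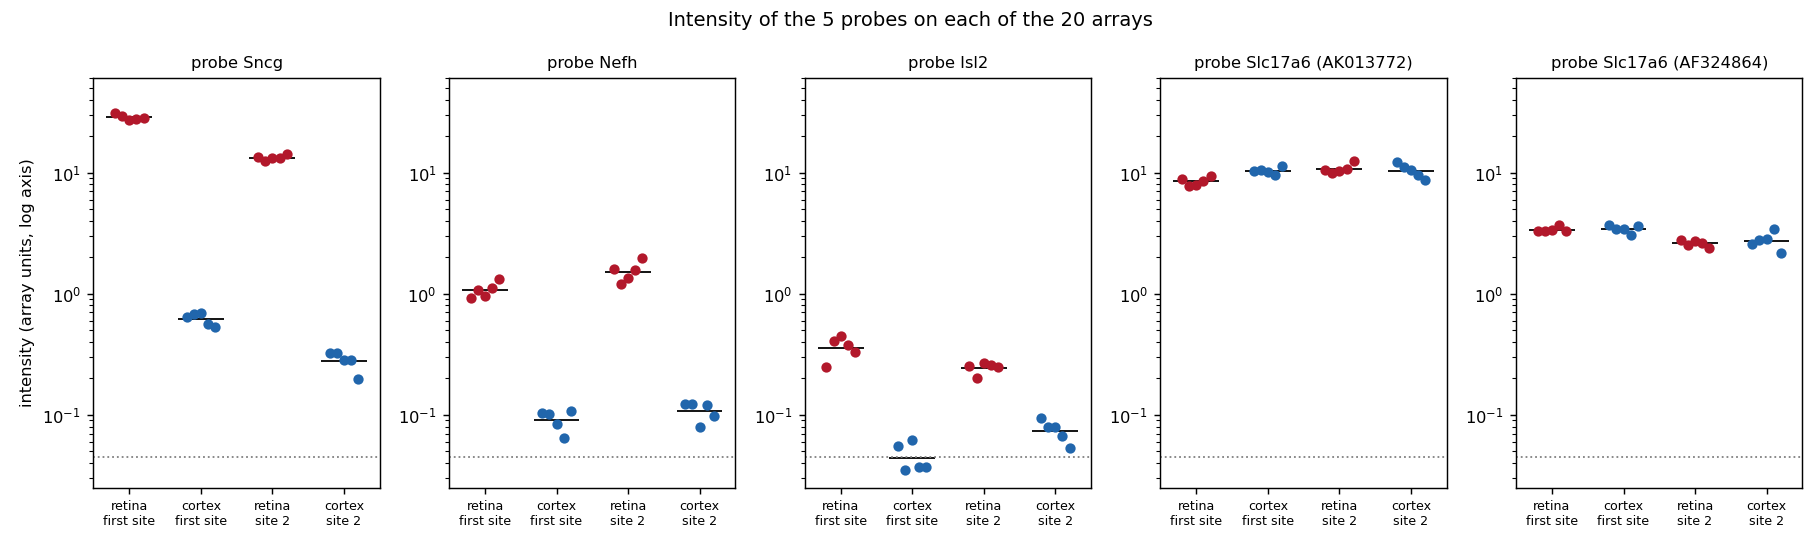
Intensity in array units on a log axis for the 5 probes, with 1 point for each array in order of replicate, the geometric mean as a black bar and the 5th percentile of all intensities (0.0445) as a dotted line. Retina is red and cortex blue; Sncg, Nefh and Isl2 lie higher in retina at both sites, and Isl2 in first-site cortex lies at the dotted line.

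Gamma-synuclein RNA was abundant in retina at each site. Sncg read 31.3, 29.6, 27.4, 27.9 and 28.1 on the first-site retina arrays, against 0.640, 0.680, 0.693, 0.567 and 0.534 on the first-site cortex arrays. At site 2 it read 13.4, 12.6, 13.2, 13.1 and 14.2 in retina, against 0.327, 0.321, 0.286, 0.286 and 0.198 in cortex. The lowest retina array was 39.5 times the highest cortex array in the first-site set and 38.6 times in the site 2 set. The fitted log2 difference was 5.54 (SE 0.11, adjusted p = 6.8e-18 in limma) in the first-site comparison and 5.57 (SE 0.11, adjusted p = 5.1e-18) in the site 2 comparison. Without cortex replicate 5 of site 2 the site 2 difference was 5.45. Sncg had the tightest replicates of the 3 genes in retina, with an SD of 0.078 log2 (first site) and 0.061 log2 (site 2) (n = 5 each). In cortex its SD was 0.164 and 0.291 log2.

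Neurofilament heavy chain RNA followed with a smaller difference. Nefh read 0.914, 1.08, 0.958, 1.12 and 1.33 in first-site retina, against 0.104, 0.101, 0.0843, 0.0640 and 0.107 in first-site cortex. The site 2 values were 1.60, 1.20, 1.35, 1.57 and 1.97 in retina, against 0.124, 0.124, 0.0788, 0.121 and 0.0971 in cortex. All 10 cortex readings lay under the 25th percentile of all intensities (0.194) and none under the 5th (0.0445). The retina level of Nefh was 11.8 times that of cortex on the first-site arrays (log2 difference 3.56, SE 0.17, adjusted p = 6.4e-13 in limma) and 14.1 times on those of site 2 (3.82, SE 0.17, adjusted p = 2.4e-13). Raising every value under the 25th percentile to it moved the differences to 2.46 and 2.96, both still called.

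Isl2 was called higher in retina at both sites, with cortex readings near the low end of all intensities. It read 0.247, 0.407, 0.451, 0.377 and 0.331 in first-site retina, against 0.0554, 0.0347, 0.0622, 0.0374 and 0.0368 in first-site cortex. In site 2 retina it read 0.254, 0.203, 0.269, 0.257 and 0.248, against 0.0941, 0.0798, 0.0791, 0.0672 and 0.0533 in site 2 cortex. The retina and cortex arrays did not overlap, but 3 of the 5 first-site cortex readings lay under the 5th percentile of all intensities. The fitted log2 difference of Isl2 was 3.01 (SE 0.19, adjusted p = 4.7e-11 in limma) for the first-site arrays and 1.74 (SE 0.19, adjusted p = 1.4e-07) for those of site 2. Whether the cortex readings were above background was not tested, so the size of the difference is open to the floor set under them. It was 2.84 and 1.74 with a floor at the 5th percentile. With a floor at the 25th, under which all 10 cortex readings lay, it was 0.87 and 0.34 and neither was called.

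Slc17a6 RNA was read at similar intensities in retina and newborn cortex by both of its probes. The probe designed to AK013772 read 8.94, 7.74, 7.91, 8.49 and 9.43 in first-site retina, against 10.4, 10.6, 10.1, 9.63 and 11.3 in first-site cortex. At site 2 it read 10.6, 9.89, 10.3, 10.7 and 12.6 in retina, against 12.3, 11.2, 10.6, 9.56 and 8.70 in cortex. The first-site groups did not overlap, with the highest retina array just under the lowest cortex array, whereas the site 2 groups overlapped. Its log2 difference was -0.29 at the first site (95% interval -0.49 to -0.10, adjusted p = 0.0102 in limma), under the 2-fold limit, and 0.05 at site 2 (-0.14 to 0.25, adjusted p = 0.651). In that first-site comparison 27.1% of all tested probes had every retina array below every cortex array, and 24.3% did at site 2.

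The probe designed to AF324864 was not called at either site. It read 3.27, 3.32, 3.33, 3.73 and 3.30 in first-site retina, against 3.73, 3.43, 3.41, 3.08 and 3.66 in first-site cortex. Site 2 readings were 2.78, 2.55, 2.71, 2.61 and 2.40 in retina, against 2.56, 2.79, 2.84, 3.40 and 2.19 in cortex. The tissues overlapped at both sites. The log2 difference was -0.03 (95% interval -0.22 to 0.17) for the first-site arrays and -0.07 (-0.26 to 0.13) for those of site 2, with adjusted p of 0.818 and 0.56 in limma. Over both probes and sites the intervals of retina minus cortex lay between -0.49 and 0.25 log2. For these pools as read by these probes, that leaves out a 2-fold difference in either direction. The intervals cover the spread between arrays and not between animals.

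**Figure D2:**
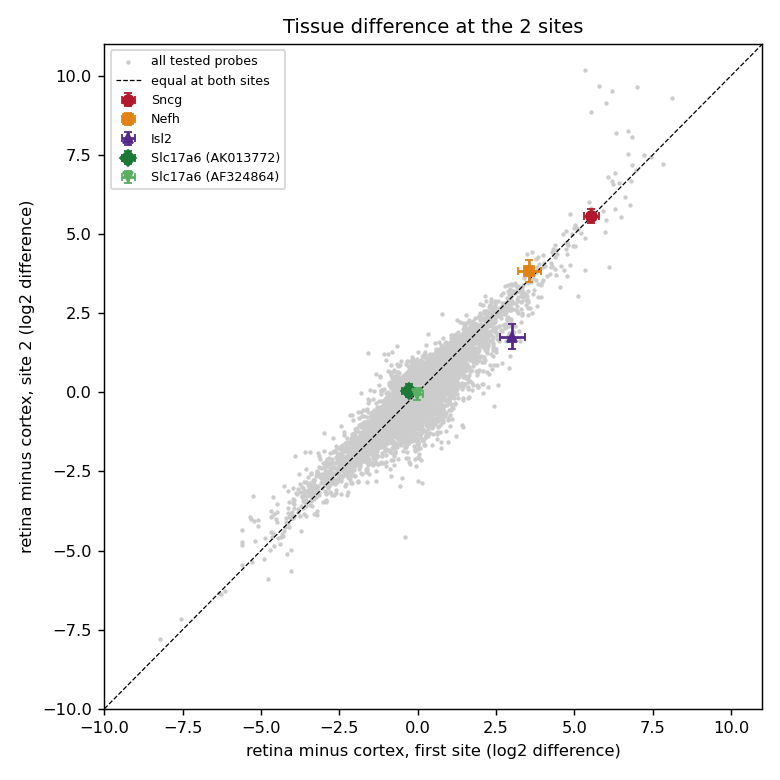
Retina minus cortex as a log2 difference at the first site (x axis) and at site 2 (y axis), with 1 grey point for each tested probe and 95% intervals on the 5 probes. Sncg (5.54 and 5.57) and Nefh (3.56 and 3.82) lie on or near the line of equal differences, Isl2 (3.01 and 1.74) lies below it, and the Slc17a6 probes lie near 0.

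The size of the tissue difference was compared between the sites by the site difference of retina minus cortex, a contrast in which 0.725% of all tested probes were called. Isl2 was called, with a fitted value of -1.27 log2 (SE 0.27, adjusted p = 0.0122 in limma) and of -1.39 without cortex replicate 5 of site 2. Its first-site cortex mean, 0.0453, lay at the 5th percentile of all intensities (0.0445), and whether it was above background was not tested. The value is therefore not read here as a change in the size of the tissue difference. The call held with a floor at the 5th percentile (-1.10, adjusted p = 0.0112 in limma). The call ended after quantile normalization (-0.99), with an offset of the 5th percentile (-0.88), after raising low values to the 25th percentile (-0.53) and at an adjusted p under 0.01. The other probes were not called. Sncg differed by 0.03 (95% interval -0.30 to 0.36), Nefh by 0.26 (-0.24 to 0.75), and the AK013772 and AF324864 probes of Slc17a6 by 0.35 (0.07 to 0.62) and -0.04 (-0.31 to 0.24).

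Levels of the same pool also moved between sites, and the genes did not move alike. Sncg fell at site 2 in both tissues, in retina to a mean of 13.3 ± 0.565 at site 2, against 28.9 ± 1.58 at the first site (SD, n = 5 each). In cortex it averaged 0.284 ± 0.0514 at site 2, against 0.623 ± 0.0696 at the first site. The log2 differences were -1.12 in retina and -1.15 in cortex (adjusted p = 3.9e-07 and 2.6e-07 in limma), and the sites did not overlap in either tissue. Of all tested probes 6.24% were called between sites in retina (4.79% higher and 1.45% lower at site 2) and 7.21% in cortex (5.29% higher and 1.92% lower). Sites without overlap were seen for 39.1% of all tested probes in retina (16.8% higher and 22.3% lower) and for 31.9% in cortex (13.2% higher and 18.7% lower). After quantile normalization the retina difference was -0.88 and was not called.

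Nefh, Isl2 and Slc17a6 moved by less than 2-fold between sites and were not called. Nefh averaged 1.54 ± 0.291 in site 2 retina, against 1.08 ± 0.162 in first-site retina (log2 difference 0.50, adjusted p = 0.0196 in limma), and the 2 sites overlapped. Isl2 differed by -0.53 in retina and by 0.74 in cortex (adjusted p = 0.0263 and 0.00359), that is, in opposite directions in the 2 tissues. The probes of Slc17a6 also read in opposite directions in retina, where the AK013772 probe differed by 0.35 and the AF324864 probe by -0.38 (adjusted p = 0.00488 and 0.00267), with no overlap between sites for either probe. In cortex they differed by 0.00 and -0.34 (adjusted p = 0.993 and 0.00593). The median over all tested probes was 0.02 in retina and 0.08 in cortex.

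**Figure D3:**
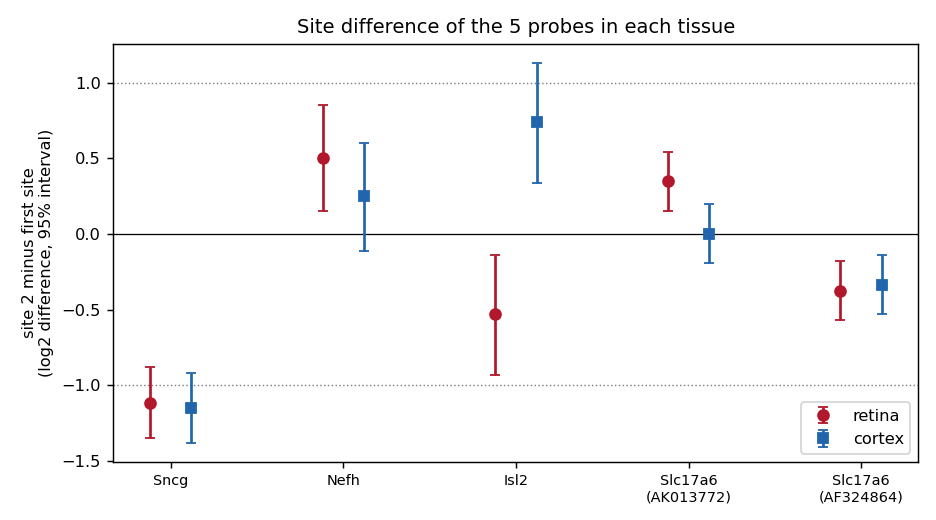
Site 2 minus first site as a log2 difference with its 95% interval for the 5 probes, in retina (red circles) and cortex (blue squares), with dotted lines at a 2-fold difference. Sncg lies near -1.1 in both tissues, Isl2 lies on opposite sides of 0, and the 2 probes of Slc17a6 differ in sign in retina.

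Ordered by mean intensity, each gene had its own order of the 4 groups. Sncg ran from first-site retina through site 2 retina and first-site cortex to site 2 cortex, and no neighbours overlapped. For Nefh the order was site 2 retina, first-site retina, site 2 cortex and first-site cortex, in which the sites overlapped within each tissue and the tissues did not. Isl2 ran from first-site retina to site 2 retina, site 2 cortex and first-site cortex, again with overlap of the sites within each tissue only. For the AK013772 probe of Slc17a6 site 2 retina, site 2 cortex and first-site cortex overlapped, at means of 10.8, 10.5 and 10.4. First-site retina, at 8.50, lay wholly below first-site cortex. The AF324864 probe had first-site cortex and retina above site 2 cortex and retina, with means of 3.46, 3.39, 2.76 and 2.61, and each neighbour in that order overlapped the next.

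Genes of the same families were set beside the members. Among the synucleins, Sncb, which encodes beta-synuclein of presynaptic terminals, was the one other gene measured. Its geometric mean was 8.23 in first-site retina, against 6.38 in first-site cortex, and 6.79 in site 2 retina, against 3.97 in site 2 cortex (log2 differences 0.37 and 0.77, not called). Of 8 intermediate filament genes, 2 were higher in retina at each site, Nefh and Nefl, and 0 lower. Over all tested probes 11.9% were higher and 13.0% lower at the first site, and 11.1% and 13.5% at site 2. Nefl, the light neurofilament subunit, had a geometric mean of 8.63 in first-site retina, against 3.94 in first-site cortex, and 5.36 in site 2 retina, against 2.52 in site 2 cortex (log2 differences 1.13 and 1.09). The medium subunit gene Nefm did not reach 2-fold (0.72 and 0.52). The 3 neurofilament subunits thus differed by 3.56, 1.13 and 0.72 at the first site.

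The remaining filament genes were not called at either site. Ina, which encodes internexin of immature and mature neurons, differed by -0.29 and -0.57. Nes, the progenitor filament nestin, differed by -0.24 and -0.13, Vim, the vimentin of glia and progenitors, by 0.11 and 0.14, and Gfap, the astrocyte filament, by -0.15 and -0.19. Prph, the peripherin of peripheral and some central axons, differed by 0.40 and -0.68. On cortex replicate 5 of site 2 Prph read 4.39, and the other 3 arrays with a value read 0.505 or less, and without it the site 2 difference was 0.11.

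SLC17 transporters other than Slc17a6 had 2 probes, and neither was called. Slc17a5, the lysosomal sialic acid transporter, differed by -0.14 at the first site and -0.20 at site 2. Slc17a1, a phosphate transporter of kidney and liver, differed by 0.02 and -1.18. Its site 2 value rested on cortex replicate 5, which read 2.84 while the remaining 4 cortex arrays reached 0.154 at the highest, and it was -0.24 without that array. Of 7 LIM homeodomain genes tested, 2 were higher in retina at each site, and 3 and 2 lower. The shares over all tested probes were 11.9% higher and 13.0% lower at the first site, and 11.1% and 13.5% at site 2. Isl1, the close relative of Isl2 in ganglion, bipolar and amacrine cells, read 6.65, 6.65, 7.04, 6.56 and 5.63 in first-site retina, against 1.30, 1.24, 1.21, 1.24 and 1.36 in first-site cortex. Its log2 differences were 2.36 and 2.20, and the groups did not overlap at either site. Lhx6, a factor of cortical interneurons, was lower in retina (-5.09 and -4.05), as was Lhx9 (-1.30 and -1.25), and Lhx4 was not called (0.23 and 0.12). Lhx2, a factor of eye and cortex progenitors, lay at the 2-fold limit and was called at the first site only (-1.01 and -0.97), and Lhx1 was not called (0.47 and 0.25). The difference of Lhx2 between sites was 0.04 (adjusted p = 0.871 in limma).

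A wider list of ganglion cell transcription factors had 12 of 18 genes tested, with Isl2 the member among them. Pou4f1, Pou4f2, Pou4f3, Ebf4, Irx6 and Tbx20 were not among the named genes of the array, so the list's counts leave them out. At each site 4 were called higher in retina, 2 lower and 6 neither way. Among all tested probes 11.9% were higher and 13.0% lower at the first site, and 11.1% and 13.5% at site 2. The list's median log2 difference was 0.22 at the first site and 0.67 at site 2, beside -0.04 and -0.05 over all tested probes. Isl2, Isl1 and Ebf1, an early B-cell factor of several neuron types, were higher at both sites, with 1.56 and 1.05 for Ebf1 (0.93 at site 2, not called, without cortex replicate 5). The fourth gene was Irx3 at the first site (1.08) and Ebf3 at site 2 (1.15). Each lay under the 2-fold limit at the other site, Irx3 at 0.87 and Ebf3 at 0.99. The difference between sites was not called for either (adjusted p = 0.526 and 0.559 in limma). Tbr1 (-3.61 and -3.49) and Foxp2 (-2.11 and -2.86) were lower in retina. Both are also factors of cortical projection neurons and stand in that list too. Eomes, a factor of melanopsin ganglion cells and of cortical progenitors, was not called (-0.26 and 0.46). Atoh7, which commits progenitors to the ganglion cell fate in the embryo, read at most 0.122 in retina and 0.184 in cortex and differed by -0.45 and -0.25 without being called.

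Of 27 other ganglion cell markers 22 were tested, again with members among them. At the first site 10 were higher in retina, 5 lower and 7 neither, and at site 2 the numbers were 8, 6 and 8. Of all tested probes 11.9% were higher and 13.0% lower at the first site, and 11.1% and 13.5% at site 2. The list's medians were 0.56 and 0.25 log2. Summed over the 22 genes, intensity was lower in retina, at 196 to 217 in first-site retina, against 246 to 269 in first-site cortex, and 137 to 158 in site 2 retina, against 278 to 293 in site 2 cortex. Much of the cortex sum came from Gap43, Stmn2 and Uchl1. Their geometric means were 89.8, 62.3 and 62.2 in first-site cortex, against 9.73, 7.99 and 35.0 in first-site retina. The sum thus follows a few bright genes, while more genes of the list were called higher than lower at each site. The 12 transcription factors summed to 19.6 to 23.7 in first-site retina, against 14.5 to 16.7 in first-site cortex, and to 17.1 to 22.4 in site 2 retina, against 12.6 to 16.5 in site 2 cortex. The retina and cortex arrays did not overlap for 21 of the 22 genes at the first site and for 17 at site 2, beside 53.3% and 48.2% of all tested probes. Cartpt, the precursor of the peptide CART, which marks direction-selective ganglion cells in mouse, differed about as much as Sncg (5.36 and 5.58). Rbpms, an RNA-binding protein used as a marker of all ganglion cells, had log2 differences of 3.10 and 3.46. It read 4.71 on retina replicate 5 of site 2 and 1.26 to 1.38 on the other 4 arrays, and the site 2 difference was 3.09 without it. Nrn1, neuritin, was higher by 1.77 and 1.81, Calb2, calretinin, by 2.19 and 2.49, and Chrna6, a nicotinic receptor subunit, by 1.12 and 1.35.

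Thy1 and Opn4 were called at the first site only, and the difference between sites was not called for either (-1.27 and -1.10 log2, adjusted p = 0.086 and 0.25 in limma). Thy1, a surface glycoprotein of ganglion cells and many other neurons, read 6.74, 4.61, 6.80, 6.20 and 2.91 in first-site retina, against 1.07, 0.758, 1.24, 2.17 and 2.32 in first-site cortex. It differed by 1.91 at the first site and by 0.64 at site 2 (adjusted p = 1.2e-05 and 0.0656). Opn4, the photopigment melanopsin of light-sensing ganglion cells, read 0.645 to 0.843 in first-site retina, against 0.201 to 0.302 in first-site cortex. At site 2 it read 0.575 to 0.723 in retina, against 0.308 to 0.351 on 4 cortex arrays and 2.27 on replicate 5. Its log2 difference was 1.55 at the first site and 0.45 at site 2, or 1.01 at site 2, called, without that array.

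Gap43 and Stmn2, both active in growing axons, were the markers furthest below cortex. Gap43, a protein of growth cones, read 10.8, 9.40, 8.74, 9.87 and 10.0 in first-site retina, against 85.9, 87.4, 99.3, 84.4 and 93.0 in first-site cortex, and differed by -3.21 and -3.74 log2. Stmn2, a regulator of microtubules, differed by -2.96 and -3.12. Adcyap1, the precursor of the peptide PACAP, differed by -2.27 and -1.80. Elavl4, a neuronal RNA-binding protein, differed by -1.43 and -1.86, and Cdh6, a cadherin, by -1.14 and -2.01. The first-site call of Cdh6 was lost without retina replicate 3 (-0.99), after quantile normalization (-0.90), with the offset (-0.88) and with the 25th percentile floor (-0.28). Uchl1, a neuronal ubiquitin hydrolase, differed by -0.83 at the first site and -1.75 at site 2, called at site 2 only. The list therefore held genes called in each direction.

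**Figure D4:**
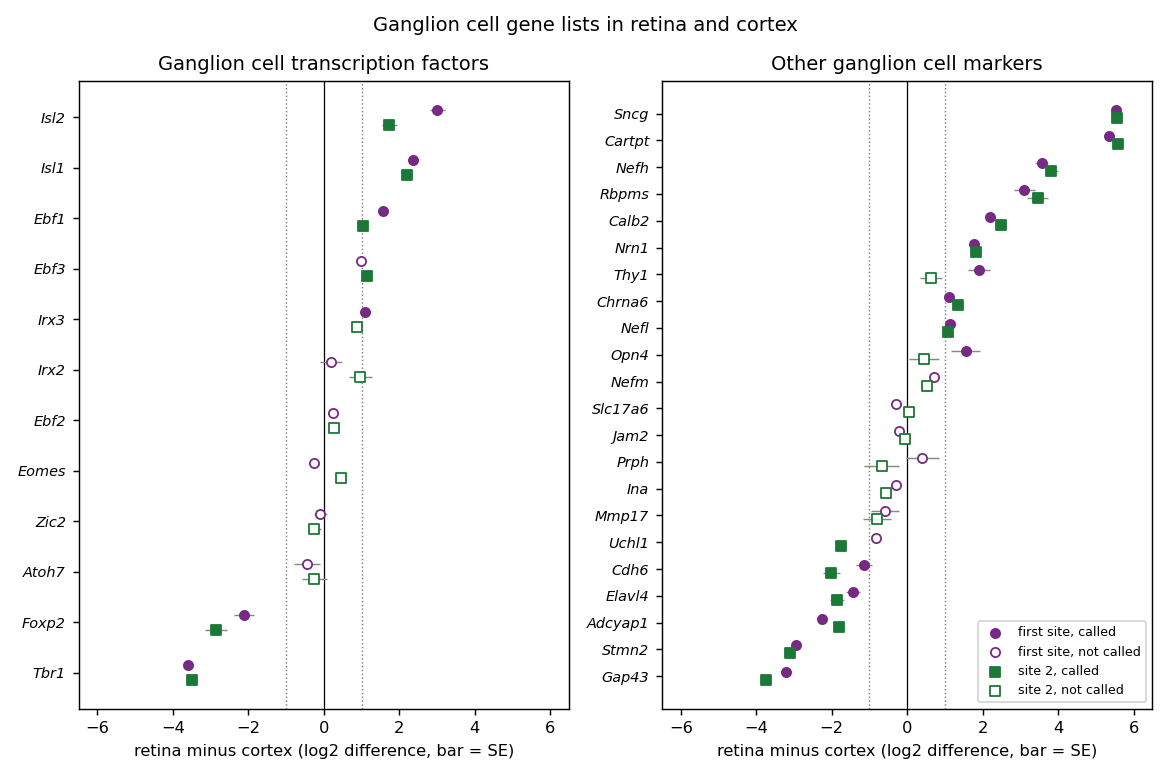
Retina minus cortex log2 difference with its SE for 12 transcription factors and 22 other markers of ganglion cells, at the first site (purple circles) and at site 2 (green squares). Filled symbols were called, dotted lines mark 2-fold, and genes run from the highest mean difference at the top (Isl2 and Sncg) to the lowest (Tbr1 and Gap43).

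Of 20 tested guidance genes of retinal axons, 10 were lower in retina and 2 higher at each site, beside 13.0% lower and 11.9% higher of all tested probes at the first site and 13.5% and 11.1% at site 2. The median of the list was -1.03 and -1.05 log2, beside -0.04 and -0.05 over all tested probes. Chl1, an adhesion molecule of the L1 family, differed by -4.69 and -4.40 and Robo1, a Slit receptor, by -3.30 and -2.89. Slit2, a Robo ligand, was higher in retina (1.71 and 2.03), as was the ephrin receptor Epha3 (1.37 and 1.57), and Ephb3 was not called (-0.29 and 0.08).

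Most tested markers of the other retinal cells were higher in retina, as were Sncg, Nefh and Isl2, and most of cortical projection neurons were lower. The part of these cells in the results was not tested. All 6 rod genes and all 4 cone genes tested were higher in retina at both sites, as were 3 of 4 bipolar genes, 9 of 12 amacrine and horizontal genes and 5 of 8 Müller glia genes. None of these lists had a gene lower in retina except 1 amacrine and horizontal gene at site 2. Beside them, 11.9% of all tested probes were higher and 13.0% lower at the first site, and 11.1% and 13.5% at site 2. Summed over the 12 amacrine and horizontal genes, intensity was 102 to 109 in first-site retina, against 28.1 to 32.5 in first-site cortex, and 88.9 to 95.1 in site 2 retina, against 17.3 to 29.0 in site 2 cortex. Among these genes Pax6, also a factor of ganglion cells, differed by 3.21 and 3.37. For the 6 rod genes the sums were 338 to 451 in first-site retina, against 5.12 to 13.5 in first-site cortex, and 517 to 580 in site 2 retina, against 3.01 to 7.55 in site 2 cortex. Of 9 cortical projection neuron genes 6 were lower in retina at each site, and 1 was higher at the first site and 0 at site 2. Their sums were 5.81 to 6.98 in first-site retina, against 41.9 to 46.0 in first-site cortex, and 7.81 to 8.50 in site 2 retina, against 43.4 to 51.6 in site 2 cortex. Emx1 was the one of these genes with a retina median under the 5th percentile of all intensities.

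Cortex could also hold other cells that express the members. Of 7 genes listed for thalamic and brainstem neurons, Slc17a6 among them, 2 were higher and 2 lower in retina at each site. All tested probes had 11.9% higher and 13.0% lower at the first site, and 11.1% and 13.5% at site 2. Tcf7l2, a factor of thalamic neurons, was lower in retina (-4.49 and -4.09), and so was the kinase gene Prkcd (-1.21 and -1.47), while Rora was higher (3.53 and 2.66) and Gbx2 was not called (0.05 and -0.02). The sums of these 7 genes were 54.7 to 69.5 in first-site retina, against 23.6 to 25.8 in first-site cortex, and 53.0 to 57.1 in site 2 retina, against 21.8 to 24.5 in site 2 cortex. The list's median difference was -0.07 and 0.05 log2. Much of the sum came from Calb2, which read 31.1 to 33.8 in first-site retina, against 6.29 to 7.31 in first-site cortex, and which is also in the Cajal-Retzius list. Rora had a geometric mean of 15.8 in first-site retina, against 1.37 in first-site cortex. Of 4 genes listed for Cajal-Retzius cells, the early neurons of the cortical surface, 1 and 2 were higher in retina and 0 lower, and Reln, reelin, was not called (-0.20 and -0.28). Their sums were 49.4 to 54.8 in first-site retina, against 25.1 to 29.7 in first-site cortex, and 31.3 to 34.3 in site 2 retina, against 18.6 to 25.1 in site 2 cortex. Whether such cells contributed to Slc17a6 in cortex was not tested.

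The genes whose profile over the 20 arrays was most like that of each probe were found by the root mean square difference of log2 intensities, each centred on its own mean. Cartpt lay closest to Sncg (0.328 log2, Pearson's r 0.994), followed by Laptm4b (0.373) and Stx3 (0.465). Nefh was closest to Sntg2 (0.202), Cdr2 (0.256) and Dbp (0.288). For Isl2 the closest were Plekha2 (0.278), Alox12 (0.301) and Tnfrsf12a (0.334). Plekha2 had a smaller tissue difference at site 2 (2.93 at the first site and 1.83 at site 2). It was picked for its likeness to Isl2 on these arrays, so this is no separate support. The AK013772 probe of Slc17a6 was closest to Pcgf6 (0.0924), Otud6b (0.101) and Fibp (0.102), and the AF324864 probe to Mtmr3 (0.0882), Mrps17 (0.105) and Ifrg15 (0.106). These 20 arrays share 2 pools and 2 sites, so the likeness describes a tissue and site pattern and carries no p.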

How the data were processed

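The authors deposited a linear intensity for each probe on each array. RNA was labelled with the CodeLink assay, per the labels' protocols. Which background correction and scaling were applied is not given in the sources used here. In the table, 143 intensities were at or below 0 and 2080 were blank. Probes were named from the platform annotation (9378 with 1 symbol, 8 with several, 1114 with none), with Entrez identifiers of 9323 found in RefSeq (GRCm38.p6) and 0 symbols changed.

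Intensities at or below 0 were set to missing and the rest put on the log2 scale. Probes with a value on at least 3 arrays of each group were tested (10339 of 10500). Array medians differed by at most 0.0594 log2, so the deposited scaling was kept. One limma model (3.58.1, R 4.3.3) with 4 group means was fitted to all 20 arrays, with Benjamini-Hochberg adjustment over all tested probes. The fit was tested on simulated data. Python 3.11.15, matplotlib 3.10.9 and numpy 2.4.6 drew plots and read sequences. No detection call was used. Precision for these pools is limited by the number of arrays. With a single pool of each tissue, the spread between animals was not measured.

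Named genes were the members, every measured gene of the intermediate filament, synuclein and SLC17 families, and from each list up to 2 genes a direction called at both sites and the 1 nearest to 0, plus the 3 most alike probes. A gene with several probes was taken by its brightest, members by each probe. Further list genes (Rbpms, Thy1, Opn4, Nrn1, Chrna6, Calb2, Atoh7, Ebf1, Ebf3, Irx3, Elavl4, Uchl1, Cdh6, Adcyap1, Emx1, Lhx1, Lhx2) were named after their values were seen. The members and lists were chosen with earlier results of these data known. Alternatives were quantile or median scaling, floors at the 5th (0.0445) and 25th (0.194) percentile, an offset, filters, a replicate block, array weights, fewer groups in the fit, an adjusted p under 0.01 and leaving out each array. Leaving out first-site cortex replicates 2 and 3 together was chosen after seeing the data.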

Additional observations from a re-analysis of the deposited data

Results flagged for a closer look

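Among the 20 sets of 5 arrays of the 5 probes, 2 had an array far from the other 4 (a gap over 0.71 of the set's range on the log2 scale). Sncg read 0.198 on cortex replicate 5 of site 2, against 0.286 to 0.327 on the other 4 arrays. The AF324864 probe of Slc17a6 read 3.73 on retina replicate 4 of the first site, against 3.27 to 3.33. Chance gives about 1 such set in 20.

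Of 136 sets of the other ganglion cell, family and further named genes, 19 had such an array. On cortex replicate 5 of site 2 the readings of Eomes (0.306), Tbr1 (2.19), Nefl (1.97), Ina (4.08), Vim (5.34) and Adcyap1 (0.538) lay below those of the other arrays and those of Prph (4.39), Slc17a1 (2.84) and Opn4 (2.27) above. In site 2 retina Isl1 (7.67 on replicate 2), Sncb (7.08 on replicate 4) and Rbpms (4.71 on replicate 5) stood high. In first-site retina Rbpms stood high (2.10 on replicate 3) and Atoh7 (0.0256 on replicate 2), Emx1 (0.0240 on replicate 4) and Ebf3 (2.02 on replicate 3) low. In first-site cortex Ina (2.73 on replicate 2), Sncb (5.42 on replicate 1) and Calb2 (6.29 on replicate 1) stood low.

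In limma, with no limit on fold, the site difference of retina minus cortex had an adjusted p under 0.05 for Isl2 (-1.27 log2). Its first-site cortex mean lay at the 5th percentile of all intensities, so this is not read as a change in the tissue difference. Among the other named genes, Gnat1 (4.83), Sag (3.30), Emx1 (1.16), Lhx6 (1.04), Eomes (0.71), Pcp2 (0.54) and Pcgf6 (0.45) were positive at this limit. Plekha2 (-1.09), Cngb3 (-1.03), Uchl1 (-0.92), Rora (-0.87), Alox12 (-0.77) and Gap43 (-0.53) were negative at it. The share of all tested probes at this limit is not given here, and 0.725% were called with the 2-fold limit added.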

How the results depend on the processing

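The Sncg and Nefh calls between tissues held in every alternative run. Sncg ranged from 5.35 to 5.91 log2 over both sites and Nefh from 2.46 to 4.15, and neither probe of Slc17a6 was called in any. Isl2 was called between tissues in each but the floor at the 25th percentile (0.87 and 0.34) and was left out with the dim probes. Its site difference was not called after quantile normalization (-0.99), with the offset (-0.88), with that floor (-0.53) or at an adjusted p under 0.01 (-1.27, adjusted p = 0.0122). Sncg between sites in retina was not called after quantile normalization (-0.88). The cause of these changes was not tested. Leaving out each array in turn changed no call of a member probe, with ranges of 5.45 to 5.63 for Sncg, 3.44 to 3.90 for Nefh and 1.63 to 3.14 for Isl2.

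Counts of called probes between tissues ran from 2145 to 2640. The count for the site difference was 75, and 41 with the offset, 160 with array weights, 33 at an adjusted p under 0.01, and 56 to 121 when each array was left out, with 121 without cortex replicate 5 of site 2. Between sites the counts were 645 in retina and 745 in cortex. They were 312 and 396 with the floor at the 25th percentile, 347 and 465 with the offset and 367 and 444 without dim probes. Of the ganglion cell transcription factors 2 were called lower, and this was 1 without dim probes and 1 with no missing values allowed, at both sites, and 1 with the 25th percentile floor at the first site. The gene no longer called with that floor was Foxp2 (-0.16).

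Arrays of the same number share only a number, since 0 of 20 pairs had deviations correlated over 0.1 (-0.078 to 0.054) and 3 of 20 were best with their own number. With a replicate block the counts were 2573 and 2534 between tissues and 63 for the site difference, and no member call changed.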
